A study of Mus musculus with 4 samples.

Results

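Complement is a set of blood and tissue proteins that tags cells and debris and recruits immune cells, and 6 of its genes are described here in fibroblasts of colon tumours: C3, C4b, Cfb, C1ra, Serping1 and Cd55. They were chosen by name, among 16305 genes in the files, as complement components and as shields against complement. C3 is the central component, cleaved by every route of activation. C1ra encodes a mouse form of the protease C1r, which starts the classical route, and C4b encodes C4, which is cleaved next to help form the C3 convertase. Cfb encodes factor B, the catalytic part of the C3 convertase of the alternative route, the loop by which deposited C3 amplifies itself. Serping1 encodes C1 inhibitor, a secreted serpin that blocks C1r and C1s, and Cd55 encodes decay-accelerating factor, a membrane protein that takes C3 convertases apart. Most circulating complement comes from the liver, and fibroblasts are a known local source.

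The samples were single cells sorted as cancer-associated fibroblasts from 4 untreated APTKA tumours, implanted orthotopically (in the colon) in C57BL6J females. Each tumour filled 1 plate of wells, and the labels give 1 group, so the 4 tumours are its replicates and every comparison is between kinds of cell within them. Whether each tumour had its own host is not stated in the labels, so p-values measure only the spread between these samples. Fibroblasts of tumour-free colon were not analysed here, and the gate of the sort is not given in the sources used here. RNA was read by SORT-seq, which counts molecules at the 3′ end of each transcript by unique molecular identifiers (UMIs), so levels of different genes are given per 10000 transcripts with no correction for length.

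Wells with at least 1000 transcripts, spike-ins left out, and at most 30% mitochondrial transcripts were kept, which left 740 of 1536 wells (43, 250, 243 and 204 in tumours 1 to 4), with median depths of 5552 to 9474 transcripts. Tumour 1 stood apart: spike-ins made up 44% of its transcripts against 5.54 to 8.59% in the others, its kept wells had a median mitochondrial share of 14.4% against 5.25 to 6.14%, and it came from another sequencing run by the names of the deposited files. The ribosomal RNA gene Rn45s took 23.3% of the transcripts of kept wells in tumour 2 and 3.95 to 10.7% in the other tumours. Groups of cells were set in single wells by fixed marker genes that include no complement gene. Fibroblast-like wells (613 of 740; 30, 217, 202 and 164 in tumours 1 to 4) carried a median of 8 of 8 fibroblast markers, with Col1a1 in 99.8% of them. Of these, 458 were given a state by the list that stood highest within the tumour: 98 inflammatory (markers such as Il6 and Cxcl1), 129 adventitial (Pi16, Dpp4), 75 contractile (Acta2, Tagln), 60 telocyte (Bmp5, Sox6), 57 wound (Mmp13, Mmp10) and 39 cycling (Top2a, Mki67). The other 155 had no state. Not every marker stood highest in its own state. Cxcl2 of the inflammatory list and Cxcl14 of the telocyte list were higher in wound wells, and Cxcl14 was also higher in inflammatory wells. Timp1 and Spp1 of the wound list were higher in cycling wells, and Timp1 also in contractile and inflammatory wells. Dpp4 of the adventitial list was rarely read, at 0.133 per 10000 in adventitial wells and in 4.08% of fibroblast-like wells. These states are ranges and not closed types: in 56 of the fibroblast-like wells the best and next best list differed by under 0.25 SD, and in 106 the best one lay within 0.25 SD of the limit. Smooth-muscle-like wells (40) and pericyte-like wells (28), together called mural here, carried Myh11 at 55.1 and Rgs5 at 8.79 per 10000. Summed markers of endothelial, immune, epithelial, glial and mesothelial cells stayed at or below 0.456 per 10000 for any list in any fibroblast group used in the tests.

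The upstream sequence is shown for C3 and Cd55, the component and the membrane shield whose levels and pairing are followed through the fibroblast states. The letters are the 250 bases before the start of each gene on its own strand, from RefSeq on GRCm38.p6, the assembly that mm10 names. RefSeq promoters were found for 3 of the 6 genes. C3 lies on the minus strand of chromosome 17 at chr17:57203970-57228136, with its upstream bases at chr17:57228137-57228386; Cd55 lies on the minus strand of chromosome 1 at chr1:130439027-130462744, with its upstream bases at chr1:130462745-130462994. Capitals mark a match to TTGCNNAA, letters bound by C/EBP, a family of factors known for acute-phase genes.
C3: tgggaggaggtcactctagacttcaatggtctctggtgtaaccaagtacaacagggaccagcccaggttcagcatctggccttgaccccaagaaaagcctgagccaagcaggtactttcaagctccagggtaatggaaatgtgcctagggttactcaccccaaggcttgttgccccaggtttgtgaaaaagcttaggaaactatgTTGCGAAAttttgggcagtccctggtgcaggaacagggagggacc
Cd55: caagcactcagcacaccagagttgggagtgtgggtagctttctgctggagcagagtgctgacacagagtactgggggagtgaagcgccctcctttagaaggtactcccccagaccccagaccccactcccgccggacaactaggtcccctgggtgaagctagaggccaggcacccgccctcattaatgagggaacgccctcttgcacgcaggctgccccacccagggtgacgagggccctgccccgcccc
The C3 match lies 45 to 38 bases before the start. Such a match on either strand was found in 9.57% of 32536 mouse promoter windows of the same length. Neither window held a match to the STAT letters TTCNNNGAA (7.04% of windows), the AP-1 letters TGANTCA (6.73%), the TATA letters TATAAA (12.3%) or NF-kB as searched by name (7.28%), and the Cd55 window held no C/EBP match. A match is a description of letters and not a bound site. Cfb and C4b lie on chromosome 17 as well, at chr17:34856374-34862518 and chr17:34728380-34743882, C1ra on chromosome 6 at chr6:124512405-124523443 and Serping1 on chromosome 2 at chr2:84765387-84775444, all in GRCm38 by GENCODE.

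C3 and Serping1 were abundant in fibroblast-like wells of every tumour. C3 stood at 34, 22.4, 18.1 and 25.8 transcripts per 10000 in tumours 1 to 4, and Serping1 at 19.1, 21, 23.5 and 27.2. Over the 4 tumours the means were 25.1 ± 6.72 for C3 and 22.7 ± 3.48 for Serping1 (SD, n = 4), so a component and a regulator were at similar levels. They were spread differently over wells. Serping1 was found in 100, 97.2, 97.5 and 97% of fibroblast-like wells and C3 in 86.7, 88, 79.2 and 82.9%. The tenth of wells with the most C3 held 51.3, 61.3 and 54.1% of all C3 transcripts in tumours 2, 3 and 4, and the tenth with the most Serping1 held 33.2, 36.3 and 34.7% of that gene. In tumour 1, where these were 3 wells, the order was reversed, with 41% for C3 and 45.8% for Serping1. The highest single wells had 144 to 320 C3 transcripts per 10000, while the median well had 4.85 to 26.6.

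The other 4 genes were read at lower levels. C1ra stood at 8.66, 3.74, 5.08 and 5.50 per 10000 in the fibroblast-like wells of tumours 1 to 4, Cfb at 2.98, 3.78, 2.45 and 4.18, and Cd55 at 4.0, 1.64, 3.27 and 3.35. C1ra was found in 80 to 84.8% of wells, Cfb in 39.6 to 63.3% and Cd55 in 52.5 to 63.3%, shares that depend on depth. With each well thinned to 2000 UMIs (576 of 613 wells were deep enough), Cd55 was found in 44.8, 23.4, 27.7 and 29.7% of wells. At full depth the wells held a median of 4 to 5.5 of the 6 genes, and 15 of 30, 61 of 217, 39 of 202 and 41 of 164 held all 6.

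C4b was the exception among the plates. It stood at 12.6 per 10000 in the fibroblast-like wells of tumour 1 and at 0.887, 1.21 and 1.15 in tumours 2, 3 and 4. The share of wells with a C4b UMI was 86.7% in tumour 1 (95% Clopper-Pearson interval 69.3 to 96.2) and 44.7, 34.7 and 42.7% in the others, and at 2000 UMIs 72.4% against 16.4, 13.1 and 18.1%. All 7 fibroblast groups of tumour 1 lay higher than the same group in each of the other tumours, at 2.60 to 23.2 per 10000, while its 6 smooth-muscle-like wells had 0.790. The 87 wells of tumour 1 above the mitochondrial limit had 4.84 per 10000. Run, spike-in share and mitochondrial share all differed in the same plate, and which of these moves with C4b cannot be told apart. C4b is also uncertain as a gene: its last 400 bases are 98.2% identical to those of C4a, for which no UMIs were counted here, so reads of the copy would be counted as C4b or lost. The same windows of C1ra and its copy C1rb were 56.7% identical, and those of Cd55 and Cd55b 61%.

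**Figure D1:**
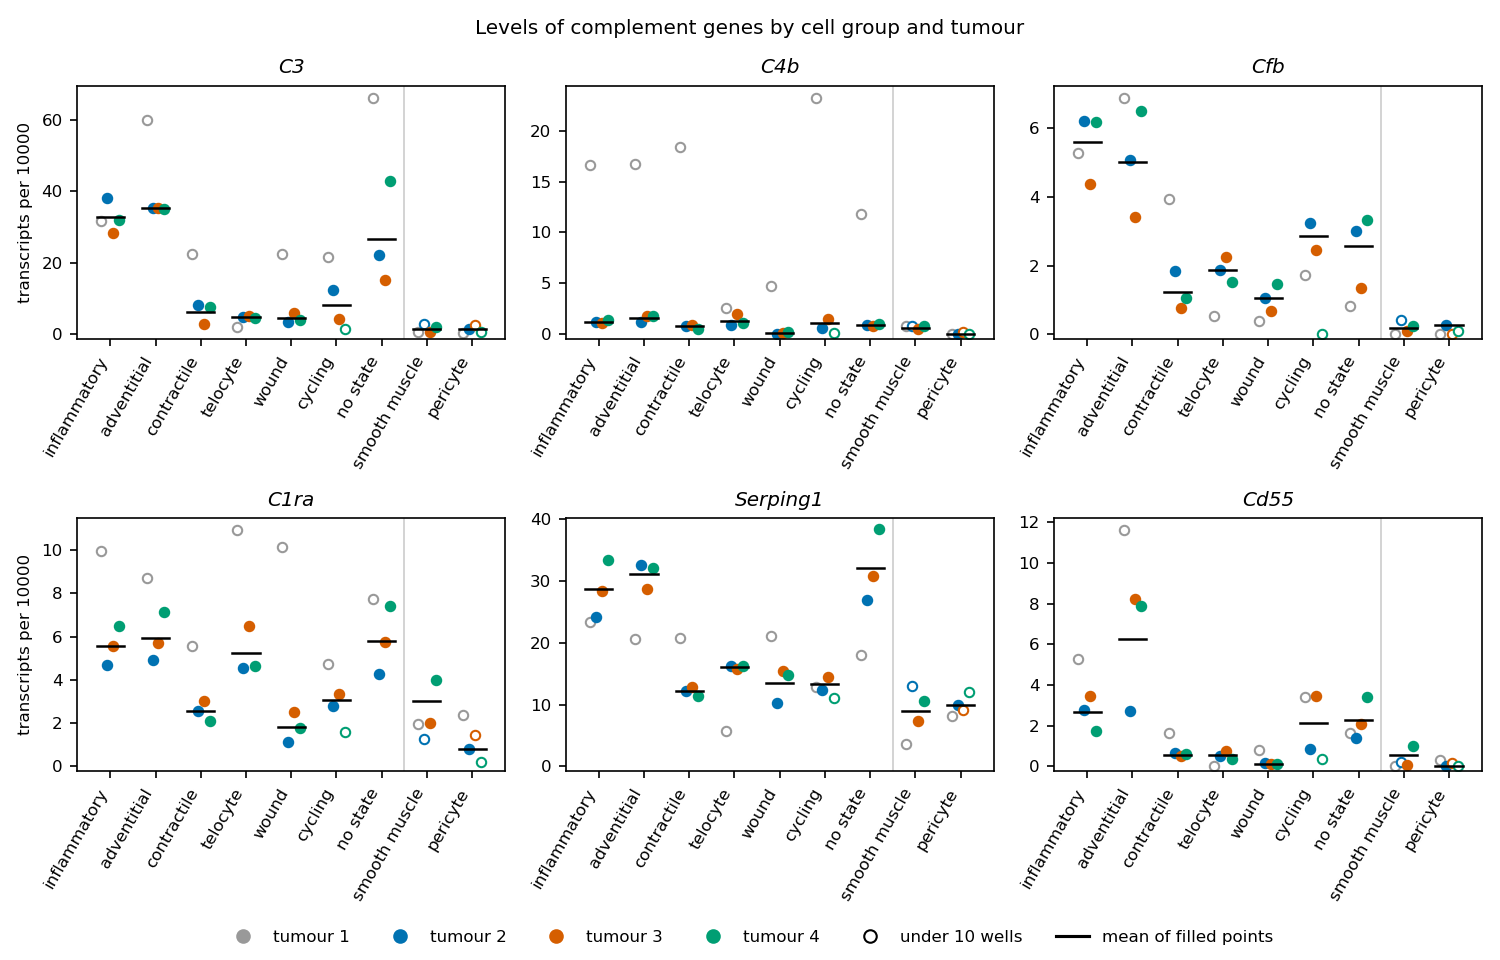
Transcripts per 10000 of each gene (y axis, linear) in each cell group (x axis), 1 point per tumour. Open points are groups of under 10 wells, which did not enter the edgeR fit, and bars are means of the filled points. C3, Cfb, Serping1 and Cd55 are higher in inflammatory and adventitial wells than in contractile, telocyte and wound wells in tumours 2 to 4, and C4b is high in the fibroblast groups of tumour 1.

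Inflammatory wells, the state named in the series title, carried more of all 6 genes than the mean of the other 5 states. C3 stood at 38.2, 28.4 and 31.9 per 10000 in the inflammatory sums of tumours 2, 3 and 4, against 8.25, 2.88 and 7.47 in contractile, 4.88, 5.17 and 4.57 in telocyte and 3.54, 5.87 and 3.89 in wound wells. The inflammatory sums did not overlap with those 3 states, and 100, 92.6 and 85.2% of inflammatory wells held C3. Tumour 1, with 4 inflammatory wells, gave 31.7 per 10000 and had no group of 10 wells, so it did not enter the fit described next. Counts were summed per tumour and group of at least 10 wells (25 sums) and compared by edgeR's quasi-likelihood test in 1 joint fit with the tumour as a block, with Benjamini-Hochberg adjustment over 8583 genes in no marker list. C3 rose by a log2 fold change of 2.11 (SE 0.23, adjusted p = 8.18e-07). All 6 genes were called higher (adjusted p under 0.05), where 4.25% of all genes were. Their median log2 fold change was 1.27, against 0.03 over all genes.

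The fitted folds of C3, Cd55 and Cfb were larger than those of Serping1, C4b and C1ra. Cfb, the partner of C3 in the alternative route, stood at 6.22, 4.37 and 6.18 per 10000 in inflammatory wells of tumours 2 to 4, with a log2 fold change of 1.58 (SE 0.19, edgeR adjusted p = 5.01e-06). Cd55 stood at 2.75, 3.47 and 1.74, with a log2 fold change of 1.72 (SE 0.27, adjusted p = 0.000101, edgeR). Serping1 rose by 0.96 (SE 0.14), C4b by 0.94 (SE 0.23) and C1ra by 0.85 (SE 0.19) on the log2 scale. By edgeR the C4b call was lost without tumour 2 (adjusted p = 0.203) or tumour 4 (0.165), and that of C1ra without tumour 4 (0.0892). Differences between these folds were not tested. Inflammatory wells were also the deepest, with a median of 13884 transcripts against 7536 in contractile, 9765 in telocyte and 11651 in wound wells, and had the lowest median mitochondrial share of the states (4.90% against 5.34 to 6.70%); the part of depth and RNA quality in the folds was not tested. At an equal 2000 UMIs, C3 was found in 88.3% of inflammatory wells and in 45.6% of contractile wells.

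Against contractile wells alone, inflammatory wells were higher in 5 of 6 genes, where 2.84% of all genes were called higher. Over all genes 244 were higher and 147 lower, and 201 and 188 with DESeq2 size factors, which gave all genes a median of -0.10 in place of 0.01 and left the same 5 genes called. Serping1 stood at 24.1, 28.3 and 33.4 per 10000 in inflammatory wells of tumours 2, 3 and 4, against 12.1, 12.8 and 11.4 in contractile wells. The ranges did not overlap, and the log2 fold change was 1.42 (SE 0.19, edgeR adjusted p = 1.81e-05). C3 rose by 2.64 (SE 0.35), Cfb by 2.39 (SE 0.29), Cd55 by 2.34 (SE 0.40) and C1ra by 1.29 (SE 0.26; adjusted p = 0.0875 by edgeR without tumour 4). C4b stood at 1.21, 1.09 and 1.40 in inflammatory wells and 0.846, 0.933 and 0.531 in contractile wells, a log2 fold change of 0.88 (SE 0.31) that did not pass (adjusted p = 0.110, edgeR).

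Adventitial wells, with Pi16 at 5.64 per 10000 against 3.42 in inflammatory wells, carried the same 6 genes at high levels. C3 stood at 35.3, 35.2 and 35.2 per 10000 in tumours 2, 3 and 4 (mean 35.2 ± 0.0595, SD, n = 3). All 6 genes were called higher than in the mean of the other states, where 5.58% of all genes were, with a median log2 fold change of 1.27 against 0.04 over all genes. Cd55 had the largest of them, a log2 fold change of 2.99 (SE 0.25, edgeR adjusted p = 3.76e-09). It stood at 2.75, 8.22 and 7.88 per 10000 in adventitial wells of tumours 2, 3 and 4, and at 11.6 in the 5 adventitial wells of tumour 1. Tumour 2 was thus low, at the level of its own inflammatory wells (2.75). Few wells held much of the Cd55: 1 of the 41 adventitial wells of tumour 4 gave 160 of their 557 transcripts. The tenth of fibroblast-like wells with the most Cd55 held 58.5, 66.3 and 68.6% of it in tumours 2, 3 and 4. The part of single wells in the Cd55 fold was not tested. C3 rose by 2.18 (SE 0.23), Cfb by 1.29 (SE 0.20), C4b by 1.26 (SE 0.22), Serping1 by 1.05 (SE 0.14) and C1ra by 0.88 (SE 0.19). The comparisons of the states share their sums, so the 6 calls in each are not independent of each other.

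Set directly against inflammatory wells, in a comparison added after the data were seen, adventitial wells differed in none of the 6 genes at the threshold, where 0.303% of all genes were called in either direction. Cd55 came nearest, with a log2 fold change of 1.06 (SE 0.33, adjusted p = 0.213, edgeR; unadjusted p = 0.00361), and it passed without tumour 2 (adjusted p = 0.0349) and with no filter on low counts (0.0083). The other log2 fold changes lay between -0.24 and 0.27.

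Wound wells, which carried Mmp13 at 119 per 10000, were low in all 6 genes against a mean that includes the high inflammatory and adventitial states. All 6 were called lower than the mean of the other states, where 4.07% of all genes were, and their median log2 fold change was -1.47 against -0.02 over all genes. Cd55 stood at 0.187, 0.119 and 0.117 per 10000 in wound wells of tumours 2, 3 and 4, from 7, 3 and 2 transcripts, and fell by 3.32 on the log2 scale (SE 0.48, edgeR adjusted p = 1.84e-05). C4b stood at 0.0267, 0.158 and 0.235, from 1, 4 and 4 transcripts, and fell by 3.25 (SE 0.41, adjusted p = 2.91e-06, edgeR). Both rest on few molecules. The 5 wound wells of tumour 1 did not enter the fit. They had 0.788 for Cd55, 4.73 for C4b, 22.4 for C3 and 10.2 for C1ra, all above the wound sums of the other tumours. Cfb fell by 1.5 (SE 0.26), C3 by 1.45 (SE 0.30) and C1ra by 1.29 (SE 0.23). With sums of at least 5 wells C3 (edgeR adjusted p = 0.209) and C1ra (0.285) were not called. Serping1 stood at 10.3, 15.5 and 14.8 per 10000 and fell by 0.50 (SE 0.15, adjusted p = 0.0387, edgeR), a call lost in 7 of 15 alternatives, among them without tumour 2 (adjusted p = 0.314), 3 (0.106) or 4 (0.126). In tumours 3 and 4 Serping1 was higher in wound than in contractile sums (12.76 and 11.45), and in tumour 2 it was lower. Mean C3 in wound wells (4.43) was near that of telocyte wells (4.88). The median wound well had 11651 transcripts, close to the 11758 of adventitial wells. Pericyte marker transcripts, summed over the list, stood at 2.59, 5.54 and 4.05 per 10000 in wound wells of tumours 2, 3 and 4, against 0.759 to 3.54 in the other 5 states, and their part in the lower readings was not tested.

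Contractile and telocyte wells were low in part of the set. In contractile wells 3 genes were called lower, where 0.454% of all genes were. These were Cfb, with a log2 fold change of -1.29 (SE 0.25), Serping1 with -0.74 (SE 0.16) and C3 with -1.06 (SE 0.28, edgeR adjusted p = 0.0474), the last a call lost in 10 of 15 alternatives. No contractile call held without tumour 3 (edgeR adjusted p = 0.143 for C3, 0.0515 for Cfb and 0.0834 for Serping1) or without tumour 4 (0.187, 0.132 and 0.196), C3 was also lost without tumour 2 (0.0742), and without the tumour block C3 had 0.278 and Cfb 0.114. Cd55 had -1.09 (SE 0.37) and C1ra -0.70 (SE 0.22), with adjusted p = 0.157 and 0.107 by edgeR. Contractile wells also held more smooth muscle marker transcripts than the other fibroblast states (4.46 to 11.8 per 10000 summed over the list, against 1.15 to 3.70), and their part in the lower readings was not tested.

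In telocyte wells C3 alone was called lower, where 1.58% of all genes were, with a log2 fold change of -1.41 (SE 0.29, edgeR adjusted p = 0.00241; 0.0613 without tumour 4). C1ra and C4b, genes of the classical route, had positive folds that did not pass. C1ra stood at 4.56, 6.49 and 4.64 per 10000, near the 4.68, 5.59 and 6.48 of inflammatory wells, with a log2 fold change against the other states of 0.48 (SE 0.20, adjusted p = 0.190, edgeR). C4b stood at 0.911, 1.99 and 1.11, with 0.82 (SE 0.26, adjusted p = 0.0668, edgeR), and Cd55 at 0.536, 0.736 and 0.346, with -1.26 (SE 0.40, adjusted p = 0.0594, edgeR). In 6 of 15 alternatives C4b, Cd55 or both passed, with the same signs. Cycling wells had no call in either direction, where 1.07% of all genes were called; by edgeR 2 genes had an unadjusted p under 0.05, Cd55 with 0.97 (SE 0.38) and Serping1 with -0.45 (SE 0.19). C3 in cycling wells stood at 12.4 in tumour 2 and 4.14 in tumour 3.

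**Figure D2:**
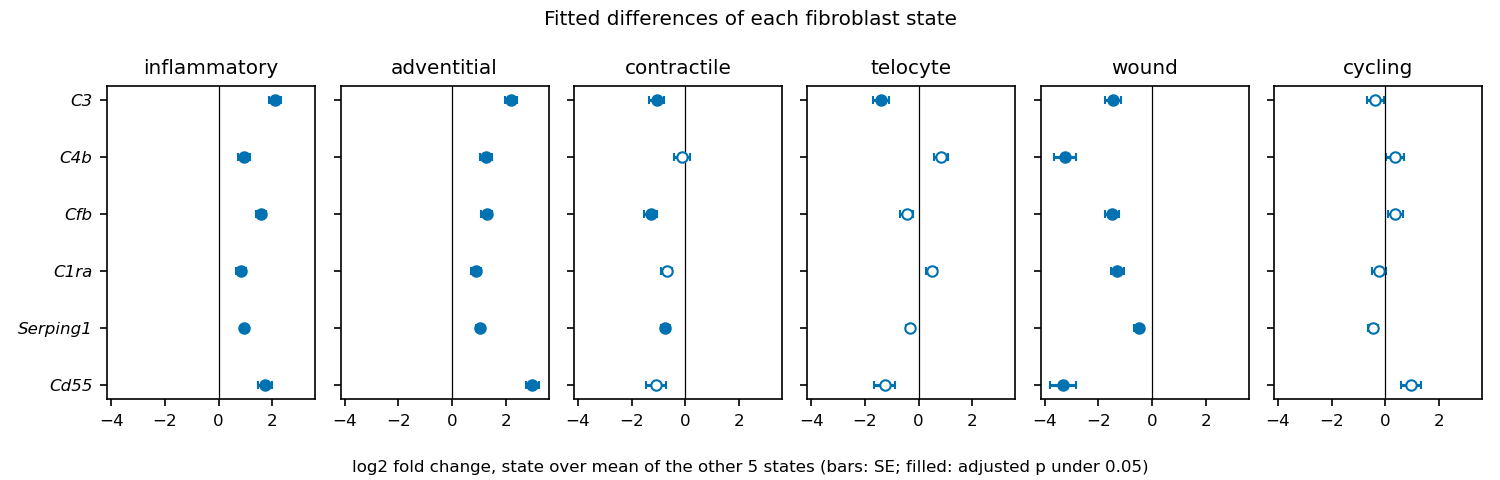
Log2 fold change (x axis) of each gene (y axis) in 1 fibroblast state over the mean of the other 5, 1 panel per state, from the joint edgeR fit; bars are SE and filled points have an adjusted p under 0.05. All points are filled and to the right in inflammatory and adventitial wells, all are filled and to the left in wound wells, and telocyte wells show C3 and C1ra on opposite sides.

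Wells with no state were in no contrast of the states. Their sums had 22.3, 15.2 and 42.8 C3 transcripts per 10000 in tumours 2, 3 and 4 (mean 26.7 ± 14.3, SD, n = 3), between and above the contractile and inflammatory levels, and 26.9, 30.8 and 38.4 for Serping1. They were shallow, with a median of 6256 transcripts. Ordered by mean level, C3 ran from adventitial (35.2) and inflammatory (32.8 ± 4.98), through no state and cycling (8.25 ± 5.81, n = 2), to contractile (6.20 ± 2.9), telocyte (4.88 ± 0.298), wound (4.43 ± 1.26), pericyte-like (1.55, n = 1) and smooth-muscle-like wells (1.31 ± 0.987, n = 2). Adventitial, inflammatory and no-state sums overlapped, as did cycling, contractile, telocyte and wound sums. The no-state sums (15.2 at least) lay above the cycling sums (12.4 at most), and the wound sums (3.54 at least) above the mural ones (2.01 at most).

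C3 transcripts per Serping1 transcript numbered 1.18 ± 0.350 in inflammatory and 1.14 ± 0.0804 in adventitial wells (SD, n = 3), against 0.519 ± 0.255 in contractile, 0.329 ± 0.0598 in wound and 0.304 ± 0.0247 in telocyte wells. The ranges of inflammatory (0.956 to 1.58) and adventitial sums (1.08 to 1.23) lay above those of the other 3 (0.226 to 0.680). Cycling sums had 1.01 in tumour 2 and 0.287 in tumour 3, and no-state sums 0.828, 0.494 and 1.11 in tumours 2, 3 and 4, so both reached into the inflammatory range. C1ra per Serping1, a protease and its inhibitor, moved differently: it was 0.195 ± 0.00199 in inflammatory, 0.191 ± 0.0361 in adventitial and 0.211 ± 0.0278 in contractile wells, with 0.326 ± 0.0756 in telocyte and 0.131 ± 0.0290 in wound wells. The ratios are a description and were not tested.

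Fibroblast-like wells carried more of all 6 genes than mural wells in each of the 4 tumours. C3 stood at 34, 22.4, 18.1 and 25.8 per 10000 in fibroblast-like wells, against 0.474, 1.89, 1.57 and 0.955 in mural wells. Serping1 had the smallest fitted fold of the 6, at 19.1, 21, 23.5 and 27.2 in fibroblast-like wells against 4.94, 10.7, 8.23 and 11.6 in mural wells. Cd55 was near the limit of counting in mural wells, with 1, 1, 3 and 4 transcripts in all, or 0.0949, 0.0509, 0.130 and 0.273 per 10000. Cfb had 0, 6, 1 and 2 transcripts there; the 0 of tumour 1 allows up to 0.285 per 10000 for counting error only (3 counts). With 4 tumours the exact two-sided sign-flip test could give no p below 0.125, which is the value of all 6 genes.

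In the joint fit all 6 were called higher in fibroblast-like than in mural sums, where 4.95% of all genes were, and the median of all genes was itself 0.25. Over all genes 425 were higher and 223 lower; with DESeq2 size factors in edgeR 219 were higher and 360 lower and the median was -0.05, with all 6 genes still called higher. C3 had a log2 fold change of 3.53 (SE 0.41, edgeR adjusted p = 8.05e-07), on 7, 8 and 23 transcripts in the mural sums. Cfb had 3.93 (SE 0.46, on 1, 1 and 4 transcripts there), C1ra 1.63 (SE 0.29) and Serping1 1.33 (SE 0.18, adjusted p = 7.05e-06, edgeR). Over the alternatives the fold of C3 ran over 2.40 to 3.77 and that of Cfb over 2.73 to 6.19. The fitted folds of C4b and Cd55 depend on a count of 0 in the 1 pericyte-like sum and are not given as sizes. Without tumour 2, which leaves smooth-muscle-like sums only, C4b (edgeR adjusted p = 0.330) and C1ra (0.0983) were not called. The mural side rested on 2 smooth-muscle-like sums (tumours 3 and 4) and 1 pericyte-like sum (tumour 2). Smooth-muscle-like wells were shallow, with a median of 4161 transcripts and a mitochondrial share of 9.53%, and pericyte-like wells had 11829 transcripts and 7.27%, where the fibroblast states had 7536 to 13884 transcripts and 4.90 to 6.70%. The part of depth and RNA quality in the mural result was not tested. Between smooth-muscle-like and pericyte-like sums none of the 6 genes was called, where 1.12% of all genes were in either direction; by edgeR 2 had an unadjusted p under 0.05, C1ra and C4b. The pericyte-like side is 1 sum, no tumour gave both kinds of sum, and the spread is borrowed from the other groups. C1ra stood at 2.02 and 4.02 per 10000 in smooth-muscle-like sums of tumours 3 and 4 and at 0.808 in the pericyte-like sum of tumour 2.

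Cd55 was read more often in wells with C3 than in wells without it, in each of the 4 tumours. Among fibroblast-like wells with a C3 UMI, 69.2, 60.7, 59.4 and 69.1% also had Cd55 in tumours 1 to 4, against 25, 7.69, 26.2 and 14.3% of wells without C3. The shares with and without C3 did not overlap between tumours. Those without C3 rest on few wells: 1, 2, 11 and 4 wells had Cd55 but no C3, and 3, 24, 31 and 24 had neither. The odds ratio combined over tumours (Mantel-Haenszel) was 7.78, and deeper wells find both genes more easily, so wells were also thinned. At 2000 UMIs per well the shares were 54.5, 30.8, 37.1 and 39.2% with C3 and 14.3, 5.17, 13.3 and 11.3% without it, an odds ratio of 5.13. At 4000 UMIs it was 4.84.

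Few wells with C3 had neither of the regulators. Of 513 fibroblast-like wells with C3, 98.4% also had Serping1 and 7 (1.37%) had neither Serping1 nor Cd55. At 2000 UMIs 94.5% of 383 such wells had Serping1 and 17 (4.44%) had neither. Serping1 was in 97 to 100% of all fibroblast-like wells, so levels were compared as well. Spearman's rho of C3 with Serping1, per 10000 transcripts, was 0.608, 0.509, 0.485 and 0.465 across the wells of tumours 1 to 4, and of C3 with Cd55 0.484, 0.514, 0.438 and 0.506. With the mean of each state, and of the no-state wells, taken off in each tumour, rho was taken again over all its wells. It ranged over the 4 tumours from 0.298 to 0.633 for C3 with Serping1 and from 0.261 to 0.436 for C3 with Cd55. No rho was taken in single states. These are descriptions over 30 to 217 wells of 1 plate, which share library and depth.

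Each of C3, C4b, Cfb and C1ra was paired with each of Serping1 and Cd55, C3 with Cfb, and C4b with C1ra, which gave 10 pairs in 4 tumours. At full depth 36 of the 40 odds ratios could be read, and all 36 were above 1. The other 4 were the pairs with Serping1 in tumour 1, where every fibroblast-like well held Serping1 and no wells without it were left to compare. At 2000 UMIs all 40 could be read and 39 were above 1, and the combined ratio was smaller in 9 of the 10 pairs. The pairs reuse the same genes, and no such count was taken for pairs of other genes in the same wells. These counts thus have no background share, and the part of shared depth and state in them was not tested. C1ra with Serping1, the protease with its inhibitor, had a combined odds ratio of 25.4 at full depth and 2.66 at 2000 UMIs. The ratio at full depth rests on few wells: C1ra was read without Serping1 in 0, 2, 0 and 1 wells of tumours 1 to 4, and neither gene in 0, 4, 5 and 4. Cfb with Cd55, the convertase subunit with the protein that dislodges it, had 3.37 and 1.30, and in tumour 2 the thinned ratio was 0.827. C3 with Cfb had 5.41 and 3.28. C3 with Cd55 had the largest ratio of the 10 at 2000 UMIs, but not at 4000. At that depth C1ra with Serping1 had 6.90, C3 with Cfb 5.46 and C3 with Serping1 5.26. The 6.90 again rests on few wells: C1ra without Serping1 in 0, 0, 2 and 1 wells of tumours 1 to 4, and neither gene in 0, 0, 2 and 4. So does the 5.26: C3 without Serping1 in 0, 0, 1 and 2 wells, and neither gene in 0, 0, 3 and 3.

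**Figure D3:**
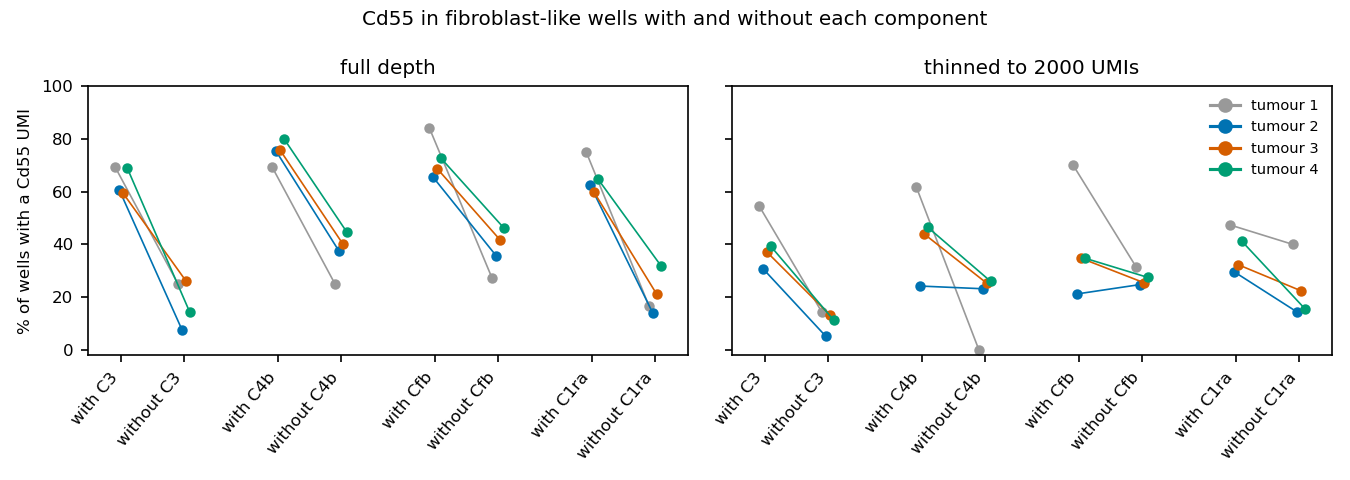
Percent of fibroblast-like wells with at least 1 Cd55 UMI (y axis) among wells with and without each component (x axis), 1 line per tumour, at full depth (left) and with wells thinned to 2000 UMIs (right). Lines fall from left to right for C3 in every tumour at both depths (thinned, 30.8 to 54.5% with C3 and 5.17 to 14.3% without), and for Cfb in tumour 2 the thinned line turns upward.

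Cd55 was also read at different rates in the C3 wells of each state. At 2000 UMIs Cd55 was found in 52.8% of adventitial wells with C3 and in 38.1% of those without it, and in 39.8% of inflammatory wells with C3 and none of the 11 without it. The shares with and without C3 were 34.4 and 16.7% in wells of no state, 25 and 0% in cycling, 19.4 and 5.41% in contractile and 16 and 0% in telocyte wells. In wound wells Cd55 was found in 9.09% of wells with C3 (2 of 22) and in 9.38% of those without it. At full depth the shares in wells with C3 were 82.9% in adventitial, 84.8% in inflammatory, 63% in no-state, 45.8% in contractile, 41.9% in cycling, 35.6% in telocyte and 25.5% in wound wells. Of the wound wells with C3, 81.8% (18 of 22) had Serping1 at 2000 UMIs. These shares pool the wells of all tumours and were not tested.

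**Figure D4:**
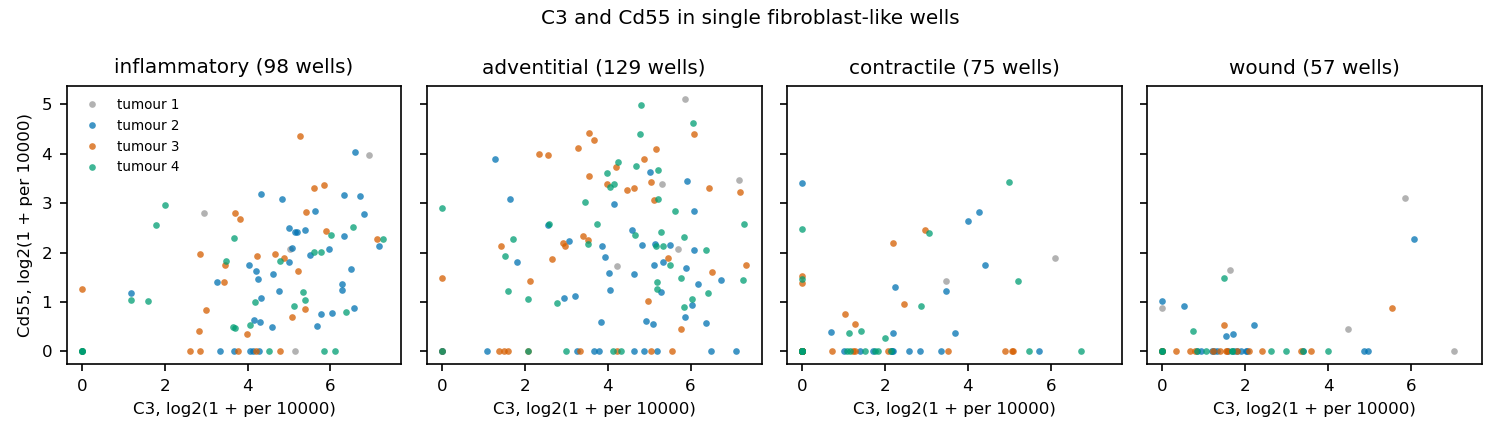
C3 (x axis) and Cd55 (y axis) as log2(1 + transcripts per 10000) in single wells of 4 fibroblast states, 1 point per well, coloured by tumour. Inflammatory (98) and adventitial wells (129) spread over the upper right, and most wound wells (57) lie at no Cd55.

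The 25 sums include the red-cell-rich and smooth-muscle-like sums of tumours 3 and 4 and the pericyte-like sum of tumour 2. Over all of them, with values centred within tumours, the 6 genes varied together to different degrees. Pearson's r was 0.945 for C3 with Serping1 and 0.83 for C3 with Cd55, and lowest for C3 with C4b (0.564). Among 2782 other genes, those most like C3 were Gfpt2, an enzyme of hexosamine synthesis (r = 0.918), the matrix gene Ccdc80 (0.913) and the secreted protease Htra3 (0.911). Cfb was closest to Loxl1, a lysyl oxidase (0.936), Icam1, an adhesion receptor induced by inflammation (0.930), and Lbp, the lipopolysaccharide-binding acute-phase protein (0.930). Serping1 was closest to Rnase4 (0.926), Htra3 (0.913) and Pcolce (0.893). Cd55 was closest to the actin-severing protein gene Gsn (0.901), Scara3 (0.888) and Pcolce2 (0.880). C1ra was closest to Tnxb, a tenascin of loose connective tissue (0.920), Cd47, the signal that holds back phagocytosis (0.910), and Dusp1 (0.891), and C4b to Xdh (0.916), Chl1 (0.913) and 5031426D15Rik (0.909). The sums share plates and range widely in depth (39802 to 727507 transcripts), and the r values are descriptions. Low levels in the red-cell-rich and mural sums enter each r, and r over the fibroblast sums alone was not taken.

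The rest of the complement system was read only in part. Of 54 complement genes listed, 41 were in the files, 12 reached 0.2 per 10000 over the kept wells and 25 were under 0.05. Levels in this paragraph are means over single wells, where the tumour and group levels elsewhere pool the transcripts of all wells. As means over single wells, C3 was at 17.7 and C1ra at 4.37. Besides the 6 genes, C1s, the protease that C1r activates (5.27 per 10000), the collectin Colec12 (1.01), the membrane regulator Cr1l (0.541), C2 (0.373), Cd59a, which blocks the membrane attack complex (0.335), and clusterin, Clu (0.330), passed 0.2. Genes of the terminal pathway stayed low: Hc, which encodes C5, was at 0.103, and C6, C7, C8a and C8g at 0.0239 or less. The subunits of C1q, which macrophages are known to make, were also near 0, with 1, 7 and 2 transcripts of C1qa, C1qb and C1qc in the kept wells. Most transcripts of the list were thus of the classical proteases, C3 and Serping1.

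Of 11 further complement genes fitted, 3 were higher in inflammatory wells (4.25% of all genes were) and none lower, with a median log2 fold change of 0.45 against 0.03 over all genes. C1s stood at 5.98 ± 0.825 per 10000 in inflammatory wells (SD, n = 3) and rose by 0.63 (SE 0.17), and Colec12 at 1.28 ± 0.226 rose by 0.76 (SE 0.18, edgeR adjusted p = 0.00930). The other was Vtn, vitronectin, named after its value was seen, at 0.293 ± 0.163 per 10000. In adventitial wells 2 of 11 were higher (5.58% of all genes were) and none lower, C1s (0.67, SE 0.17) and Vtn. In telocyte wells C1s stood highest, at 7.65 ± 0.513 per 10000, with a log2 fold change of 0.79 (SE 0.17, adjusted p = 0.00388, edgeR), beside C1rl, named after its value was seen (1.41, SE 0.37); 4.04% of all genes were called higher in this state. C1s, the partner of C1ra, was thus higher in the state in which C3 was lower.

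In wound wells 1 of the 11 was lower and 1 higher. C1s fell by 0.96 there (SE 0.20, edgeR adjusted p = 0.00183), at 2.69 ± 1.09 per 10000, and Cd59a rose, at 0.510 ± 0.331 per 10000 with a log2 fold change of 1.72 (SE 0.43, adjusted p = 0.00971, edgeR), where 4.51% of all genes were called higher. Cd59a and Cd55, both membrane shields, thus moved in opposite directions in this state, Cd59a on 35 transcripts in 57 wells. No further gene was called in contractile or cycling wells. Against mural sums 2 of 11 were higher in fibroblast-like sums, C1s (1.37) and Colec12 (1.80) on the log2 scale, and none lower, where 4.95% of all genes were higher and the median of all genes was 0.25; smooth-muscle-like wells had Cd59a at 2.07 ± 1.69 per 10000 (n = 2), the highest of the groups.

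**Figure D5:**
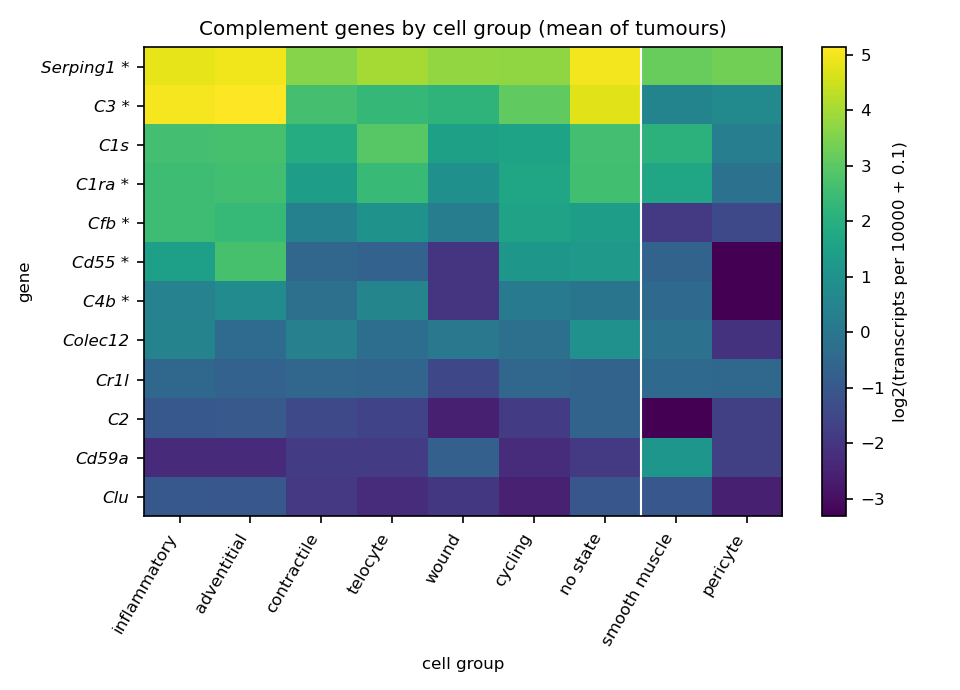
Mean level of the 12 complement genes at or above 0.2 per 10000 (rows, the 6 genes described here starred) in each cell group (columns), on a log2 scale of transcripts per 10000 with 0.1 added. Lighter is higher: C3 and Cd55 are lighter in inflammatory and adventitial than in wound and mural wells, C1s is lightest in telocyte wells and Cd59a in smooth-muscle-like wells.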

How the data were processed

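The deposited values are expected counts per gene and well, with UMI saturation corrected by the authors as far as the values show: with 4096 possible UMIs, each value maps back to whole UMIs within 0.00486. Per the submitters' processing notes, BWA and mm10 were used; their versions, the counting program and the annotation were not stated. The plates held 612734, 3165550, 2805112 and 2727191 transcripts. Spike-ins were left out of totals, and no doublet caller was run, since a well was meant to hold 1 cell. Wells with at least 100 red cell transcripts per 10000 (41) were a group of their own.

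A well took a lineage with at least 4 of its markers (3 for fibroblasts, Cajal and glial cells), and a fibroblast-like well the state with the highest z-score within its tumour, if at least 0.5. Sums of at least 10 wells were rounded and fitted with edgeR 4.0.16 (R 4.3.3; TMM, filterByExpr, glmQLFTest; SE is the log2 fold change over the root of F; 13 residual degrees of freedom). The tumour is a block because the sums of 1 tumour come from 1 plate. In counts simulated for inflammatory wells against the other states, the fit called 36.7% of 98 genes changed 2-fold and 96.9% of 98 changed 4-fold, among 8663 genes. The simulation changed only well-counted genes, gave every gene the same spread and had no differences between tumours. It does not cover genes of few counts. Well shares and pairings used recovered whole UMIs (pandas 2.3.3, scipy 1.17.1); intervals cover counting error only. Named genes are the 6, the complement genes at 0.2 per 10000 or more, and for each of the 6 the 3 genes, at 0.5 or more, with the highest correlation. The 6 genes, lists and tests were chosen with earlier results of these data known. The comparison of adventitial with inflammatory wells was added after the data were seen. The list of complement genes is not complete, and some results are not reported here. Alternatives are given below.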

Additional observations from a re-analysis of the deposited data

Results flagged for a closer look

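C4b in tumour 1 lay far from the other 3 plates: its distance to the nearest plate was 0.972 of the whole range in fibroblast-like wells, above Dixon's 95% limit for 4 values. The limit was passed by its level in fibroblast-like wells (12.55 per 10000) and in all kept wells (8.565), and by the share of wells with a UMI at 2000 UMIs in fibroblast-like wells (72.41%) and in all kept wells (56.41%). Of 24 groups of 4 values tested for the 6 genes, these 4 passed, all of them C4b; chance alone passes about 1 in 20 such groups, and the 4 are not independent of each other. The part of the sequencing run, the spike-in share and the mitochondrial share of that plate cannot be told apart from the tumour.

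All 6 genes were read in wells that entered no comparison. In 113 wells above the mitochondrial limit C3 stood at 13.74 per 10000, Serping1 at 6.045, C4b at 3.896, C1ra at 1.97, Cfb at 1.253 and Cd55 at 0.6267, and 87 of these wells were from tumour 1. In 683 wells under 1000 transcripts Serping1 stood at 19.99, C3 at 12.17, Cfb at 2.297, C1ra at 2.235, C4b at 1.428 and Cd55 at 0.8071. Each lies above the 3 counts that a count of 0 allows. The part of free RNA in the shallow wells was not tested.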

How the results depend on the processing

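Of 33 calls of the 6 genes in the planned comparisons, 20 held in all 15 alternatives and none changed sign. In adventitial wells C1ra was lost in 1 alternative and the other 5 genes in none, and C3, Cfb, Cd55 and Serping1 in inflammatory wells in none. Tumour 1 entered no sum, so leaving it out changed no edgeR result. The block is the tumour, and with no replicate block the contractile count fell to 1 of 6 (C3 adjusted p = 0.278). Taking sums of at least 5 wells, which admits tumour 1 and tests 5793 genes in place of 8583, gave 0 of 6 in contractile, 0 in telocyte and 3 in wound wells. Telocyte counts were 2 with DESeq2 size factors, at most 15% mitochondrial, a z of at least 1 and 2000 transcripts, and 3 with no filter and with whole UMIs. Whole UMIs also gave 2 of 6 between smooth-muscle-like and pericyte-like sums, and the cause was not tested. With no filter 1 of 6 was called in adventitial against inflammatory wells. Leaving out each tumour in turn gave 0 to 3 of 6 calls in contractile, 0 to 1 in telocyte, 5 to 6 in wound, 4 to 6 in inflammatory wells, 4 to 5 against contractile wells, 4 to 6 against mural wells, 6 to 6 in adventitial wells and 0 to 1 in adventitial against inflammatory wells; cycling and smooth-muscle-like against pericyte-like had 0 in each. Reversed, none of them called, were C4b in contractile wells (-0.55 to 0.25 over left-out tumours, 0.25 without tumour 4), C3 in cycling wells (0.14 at a z of at least 1, and -1.25 to 0.28 over left-out tumours), C4b (-0.35) and Cfb (-0.32) in cycling wells with 5 wells, and between smooth-muscle-like and pericyte-like sums Cfb (0.35 with 5 wells), Cd55 (-1.32 with whole UMIs) and C3 (-0.74 to 0.12 over left-out tumours). In adventitial against inflammatory wells these were C3 (-0.23 at a z of at least 1, -0.020 with 5 wells, -0.0066 to 0.10 over left-out tumours), C1ra (-0.056 with 5 wells, -0.0096 with whole UMIs, -0.034 to 0.087 over left-out tumours) and Serping1 (-0.15 to 0.20 over left-out tumours). Without Rn45s and mitochondrial transcripts in the totals, a setting chosen after seeing the data, the mean of C3 over kept wells was 26.1 per 10000 in place of 20.9 and that of Serping1 25.7 in place of 20.6. Odds ratios above 1 numbered 36 of 36 that could be read at full depth, 39 of 40 at 2000 and 32 of 32 at 4000 UMIs. Pairs of other genes were not counted. Counts of all genes called ran from 149 to 640 in inflammatory (417 as reported), 318 to 987 in adventitial (703), 41 to 348 in contractile (150), 218 to 654 in telocyte (483), 347 to 874 in wound (736), 9 to 196 in cycling wells (92), 133 to 626 in inflammatory against contractile (391), 383 to 922 against mural (648) and 37 to 368 between mural types (96), and 0 to 149 in adventitial against inflammatory wells (26). Smooth-muscle-like against pericyte-like could not be fitted without tumour 2 or on its own groups alone. Where a call was lost, the cause was not tested. Under 10 transcripts a sum lay behind C4b and Cd55 in wound and mural sums and behind Cfb in mural sums. The same held for C3 in the smooth-muscle-like sums of tumours 3 and 4 (7 and 8 transcripts). It also held for Cd55 in the telocyte sum of tumour 4 (5 transcripts).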
